A study of Mus musculus with 9 samples.

Results

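A set of 10 genes of the NRF2 pathway, of glutathione metabolism and of ferroptosis was followed in mouse lung organoids, multicellular cultures that keep some of the make-up of a tissue. They were Nfe2l2, Keap1, Nqo1, Hmox1, Gclc, Gclm, Slc7a11, Gpx4, Txnrd1 and Acsl4, each found by its symbol in both comparison tables, 10 rows of 57010 in each. RNA came from 9 libraries in 3 groups of 3: SCLC organoids treated with an agent that the labels name only GSK (GSK), organoids of small cell lung cancer (SCLC), and organoids of normal lung (Normal). Genotype, strain, age, dose and time of treatment, and whether a group's libraries came from separate animals or cultures, are not stated in the labels. The values were the authors' comparisons of 3 libraries against 3, with no value for a single library, so overlap between groups could not be seen. Where libraries of a group came from the same culture, p-values measure the spread between libraries only.

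NRF2, the protein of Nfe2l2, is a transcription factor that switches on genes against oxidants and reactive chemicals. KEAP1 holds it in the cytoplasm and passes it to degradation, and oxidants that modify KEAP1 release it. Its targets include enzymes that make glutathione, the main thiol of the cell, which GPX4 uses to reduce lipid peroxides in membranes. Ferroptosis is the iron-dependent cell death that follows when those peroxides build up, and in lung cancer the KEAP1 and NRF2 genes are known sites of mutation.

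The implied totals of normalized counts per library were 42.0 M (mega-counts) for SCLC and 44.7 for Normal per the authors' deposited table of that pair, and 31.9 for GSK and 45.3 for SCLC in the other. The labels of SCLC and Normal were checked on marker genes: all 5 neuroendocrine markers rose and all 6 epithelial markers fell in SCLC per the authors' deposited table. The GSK libraries, labelled as SCLC organoids, stood apart. All 6 macrophage markers, 4 fibroblast markers, 4 endothelial markers and 3 tested erythroid genes rose in GSK per the authors' deposited table. All 6 epithelial markers rose too, with sums of 8939 normalized counts in GSK and 532 in SCLC, from the authors' deposited table. The summed macrophage markers were 14780.4 normalized counts in GSK, against 123 in SCLC, and the summed endothelial markers 12649 in GSK, against 39.7 in SCLC, from the authors' deposited table. Adgre1, which encodes the macrophage protein F4/80, was at least 1293-fold higher in GSK, since its SCLC mean lay under the floor of 1 count per library, per the authors' deposited table. Of the 5 neuroendocrine markers, 2 fell and 1 rose in GSK per the authors' deposited table, and their sum was 49361.5 normalized counts in GSK, against 100926 in SCLC. Insm1, which fell, had the largest mean of the 5 (42115 normalized counts) and so weighs most in this sum. Normal libraries carried macrophage RNA as well, with sums of 115 in SCLC, where Adgre1, Itgam and Marco lay under the floor, and 4892 in Normal, from the authors' deposited table. The summed epithelial markers were 494 in SCLC and 2680090 in Normal, from the authors' deposited table. All 4 fibroblast markers were lower in SCLC too, with sums of 20.9 in SCLC and 8043 in Normal, as were 3 of 4 endothelial markers, with sums of 37.2 in SCLC and 109 in Normal, from the authors' deposited table. These shifts accompany every value given for both comparisons, and their part in the results was not tested. In such bulk samples, fewer cells of a type and less RNA per cell cannot be told apart.

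**Figure D1:**
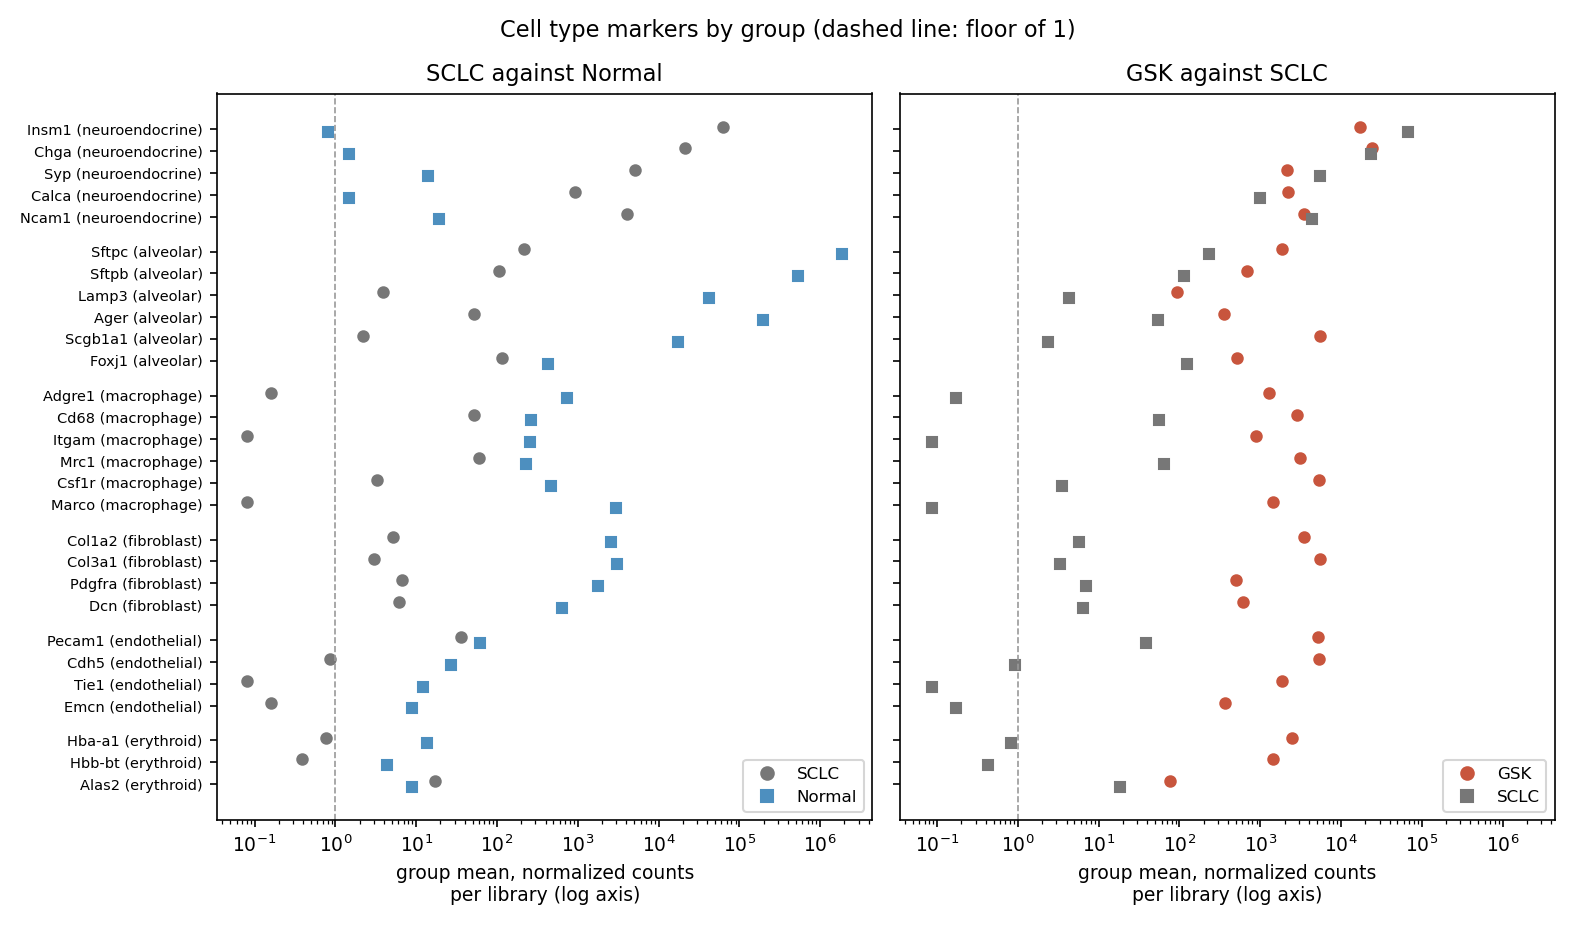
Group means of 6 sets of cell type markers (log axis, normalized counts per library) in SCLC and Normal (left) and in GSK and SCLC (right); points left of the dashed line lie under the floor of 1 count and are not exact. The epithelial, macrophage, fibroblast, endothelial and erythroid markers sit further right in GSK than in SCLC.

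NRF2 acts with small MAF proteins on antioxidant response elements, whose core letters are TGACNNNGC. RefSeq promoters (GRCm38.p6, 250 bases before to 50 after a start) were at hand for 8 of the 10 genes, in 13 windows, and were searched for these letters on both strands. Hmox1 and Gclc, both lower in SCLC than in Normal, had no promoter at hand and were not searched. Matches lay in 3 windows, those of Nfe2l2 itself, of Gclm and of 1 of the starts of Txnrd1, and 12.4% of all 32851 promoters held such a match. None of the 13 windows held TGANTCA, the AP-1 site that the element resembles, which 7.81% of all promoters held. The 3 matches are shown, each in 60 bases before the start. Keap1, Nqo1, Slc7a11, Gpx4 and Acsl4 were searched too and held no match in their windows. Between SCLC and Normal, Gclm and Txnrd1 did not pass and Nfe2l2 fell. A link between matches and fold changes was not tested. Capitals mark the match, which lies on the opposite strand in Gclm and Txnrd1.
Nfe2l2 (chr2:75704854-75704913, minus strand): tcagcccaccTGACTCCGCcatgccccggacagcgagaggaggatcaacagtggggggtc
Gclm (chr3:122245398-122245457, plus strand): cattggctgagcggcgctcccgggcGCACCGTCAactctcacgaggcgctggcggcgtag
Txnrd1 (chr10:82859089-82859148, plus strand): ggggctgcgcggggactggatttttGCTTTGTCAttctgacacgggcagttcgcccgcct
A match describes letters only and is not a bound site. It begins 240 bases before the start in Nfe2l2, 134 in Gclm and 92 in Txnrd1. The start used for Nfe2l2 was not found in a transcript, unlike those of Gclm and Txnrd1, so its distance is less certain.

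Tumour organoids were first set against organoids of normal lung. Of the 10 genes, 7 were lower in SCLC and 0 higher per the authors' deposited table (adjusted p under 0.05). At an unadjusted p under 0.05 the counts were also 7 and 0. Over all 24719 genes tested there, 25.1% were lower and 25.3% higher, 50.4% in either direction. Among genes with a mean of at least 1000 normalized counts, 29.1% were lower and 38.2% higher, 67.3% in either direction. The median log2 fold change of the 10 genes was -2.67, from the authors' deposited table. It was 0.10 over all genes tested and 0.19 among those with a mean of at least 1000. The fall took in the transcription factor, an NRF2 target enzyme of quinones, the catalytic subunit of glutathione synthesis, the cystine transporter, the lipid peroxidase and the lipid enzyme of ferroptosis.

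**Figure D2:**
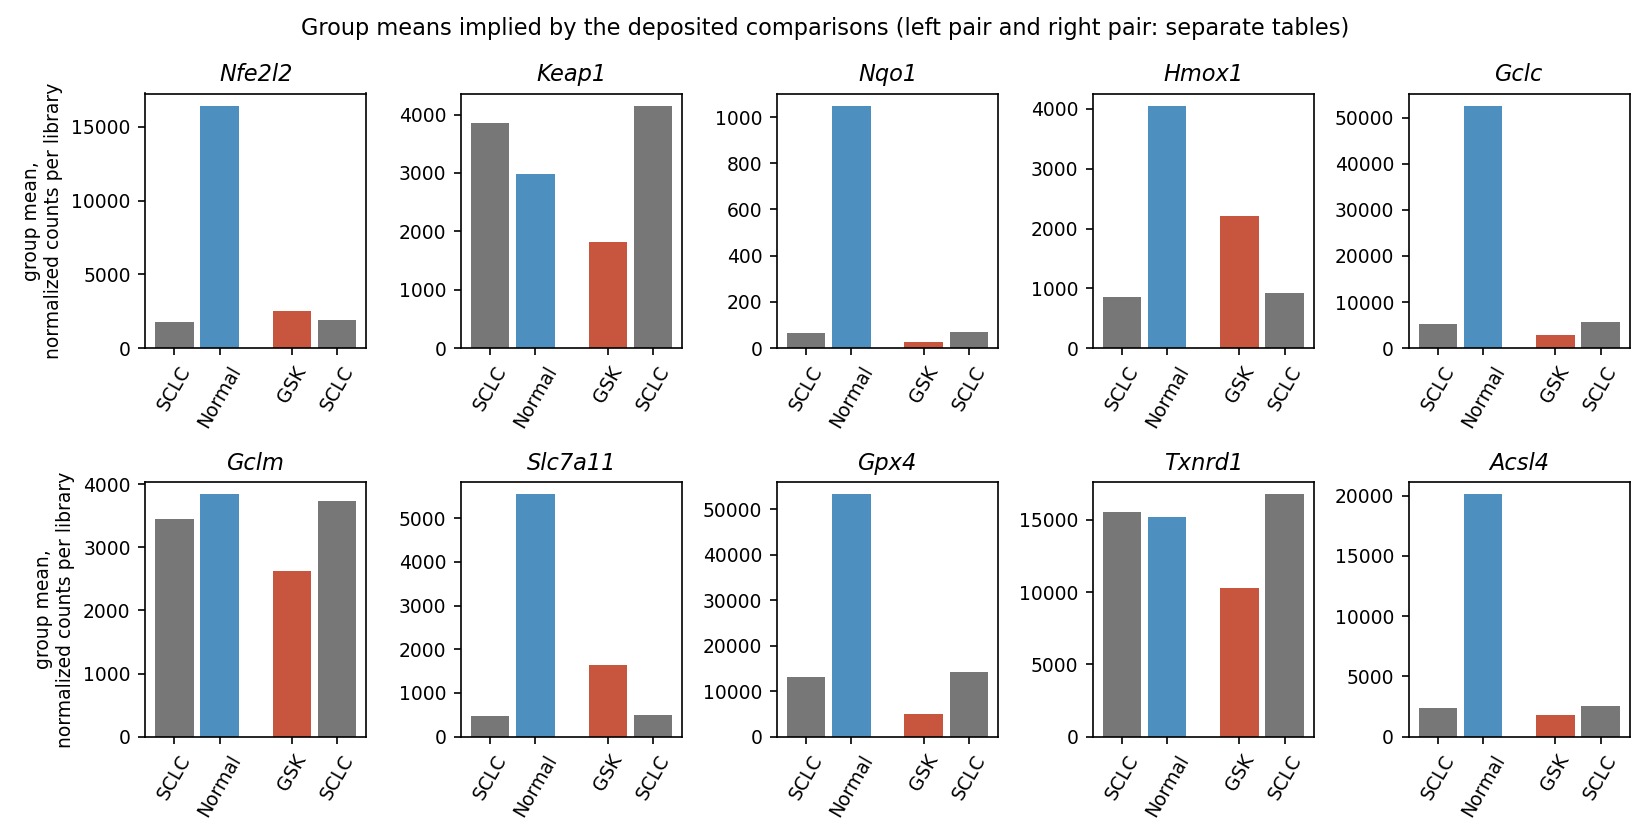
Implied group means (normalized counts per library, bars from 0) of the 10 genes: the left pair of bars is SCLC and Normal, the right pair GSK and SCLC from a separately scaled table; no error is drawn because the tables hold no library values. Gclc stood at 5285 in SCLC and 52593 in Normal, while Txnrd1 stood at 15537 and 15192.

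The transcription factor and its inhibitor moved unequally. Nfe2l2 had an implied mean of 1778 normalized counts in SCLC, against 16432 in Normal, per the authors' deposited table. Its log2 fold change was -3.21 ± 0.33 (SE, 3 libraries a group), so that SCLC held 10.8% of the Normal level (95% interval 6.92% to 16.9%; adjusted p = 2.99e-21 per the authors' deposited table). Keap1 had 3849 in SCLC, against 2991 in Normal, a log2 fold change of 0.36 ± 0.25 that did not pass (adjusted p = 0.219 per the authors' deposited table). Its 95% interval ran from -0.12 to 0.85 on the log2 scale. Per kb of the longest annotated transcript, Nfe2l2 RNA was 0.674 times that of Keap1 in SCLC and 8.02 times in Normal, from the authors' deposited table. Nfe2l2 RNA was thus the scarcer of the pair in SCLC and the more abundant in Normal.

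Nqo1 and Hmox1 encode the enzymes most used as readouts of NRF2. Nqo1, which reduces quinones, had 63.4 normalized counts in SCLC, against 1049 in Normal, with a log2 fold change of -4.05 ± 0.43 (adjusted p = 8.76e-20 per the authors' deposited table). SCLC held 6.04% of the Normal level (95% interval 3.37% to 10.9%). Hmox1, the haem-degrading enzyme that is also abundant in macrophages, had 850.0 in SCLC, against 4055 in Normal, with a log2 fold change of -2.25 ± 0.42 (adjusted p = 4.35e-07 per the authors' deposited table). The summed macrophage markers moved the same way, as given above, and their part in the fall of Hmox1 was not tested.

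The enzymes that make glutathione split. Glutamate-cysteine ligase, the rate-limiting enzyme of glutathione synthesis, has a catalytic subunit, Gclc, and a modifier subunit, Gclm. Gclc had 5285 normalized counts in SCLC, against 52593 in Normal, with a log2 fold change of -3.31 ± 0.39 (adjusted p = 1.33e-16 per the authors' deposited table). Gclm had 3452 in SCLC, against 3842 in Normal, with a log2 fold change of -0.15 ± 0.41 that did not pass (adjusted p = 0.776, 95% interval -0.95 to 0.64, per the authors' deposited table). The 95% intervals of the subunits do not meet, since that of Gclc ran from -4.07 to -2.56; their difference itself was not tested. Per kb of transcript, Gclc RNA was 2.50 times Gclm RNA in SCLC and 22.3 times in Normal, from the authors' deposited table. Slc7a11, the cystine importer of system xc-, had 473 in SCLC, against 5551 in Normal, with a log2 fold change of -3.55 ± 1.28 (adjusted p = 0.0131 per the authors' deposited table). Its fold change was among the largest of the 10 genes and the least exact: the 95% interval put SCLC anywhere from 1.49% to 48.8% of Normal. The call ended in a test of a log2 fold change above 1, computed from the authors' deposited table (adjusted p = 0.156).

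The peroxide-reducing enzymes also split. Gpx4, a selenoprotein that reduces lipid hydroperoxides, had 13036 normalized counts in SCLC, against 53309 in Normal, with a log2 fold change of -2.03 ± 0.27 (adjusted p = 2.41e-13 per the authors' deposited table). Reads of Gpx4 could be shared with its processed pseudogene Gpx4-ps2, whose log2 fold change was -2.36 at a mean of 3834 normalized counts, against 33172 for Gpx4, per the authors' deposited table. Without GC content and length trends the value of Gpx4 was -3.02. Txnrd1, the cytosolic thioredoxin reductase and likewise a selenoprotein, had 15537 in SCLC, against 15192 in Normal, with a log2 fold change of 0.03 ± 0.30 (adjusted p = 0.94, 95% interval -0.56 to 0.62, per the authors' deposited table). The sign of this near-zero value turned when fold changes were set to the median gene (-0.15) and when GC content and length trends were removed (-0.09). Per kb, Gpx4 RNA was 3.05 times Txnrd1 RNA in SCLC and 12.8 times in Normal, from the authors' deposited table.

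Acsl4 encodes the ligase that loads polyunsaturated fatty acids into membrane lipids and so supplies the substrate of ferroptosis. Acsl4 had 2366 normalized counts in SCLC, against 20115 in Normal, with a log2 fold change of -3.09 ± 0.42 (adjusted p = 1.3e-12 per the authors' deposited table). SCLC held 11.8% of the Normal level (95% interval 6.66% to 20.8%). RNA of the ferroptosis-promoting Acsl4 and of the ferroptosis suppressors Gpx4 and Slc7a11 thus fell together. Of the 7 genes that fell, 6 also passed a test of an absolute log2 fold change above 1, Slc7a11 being the exception.

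**Figure D3:**
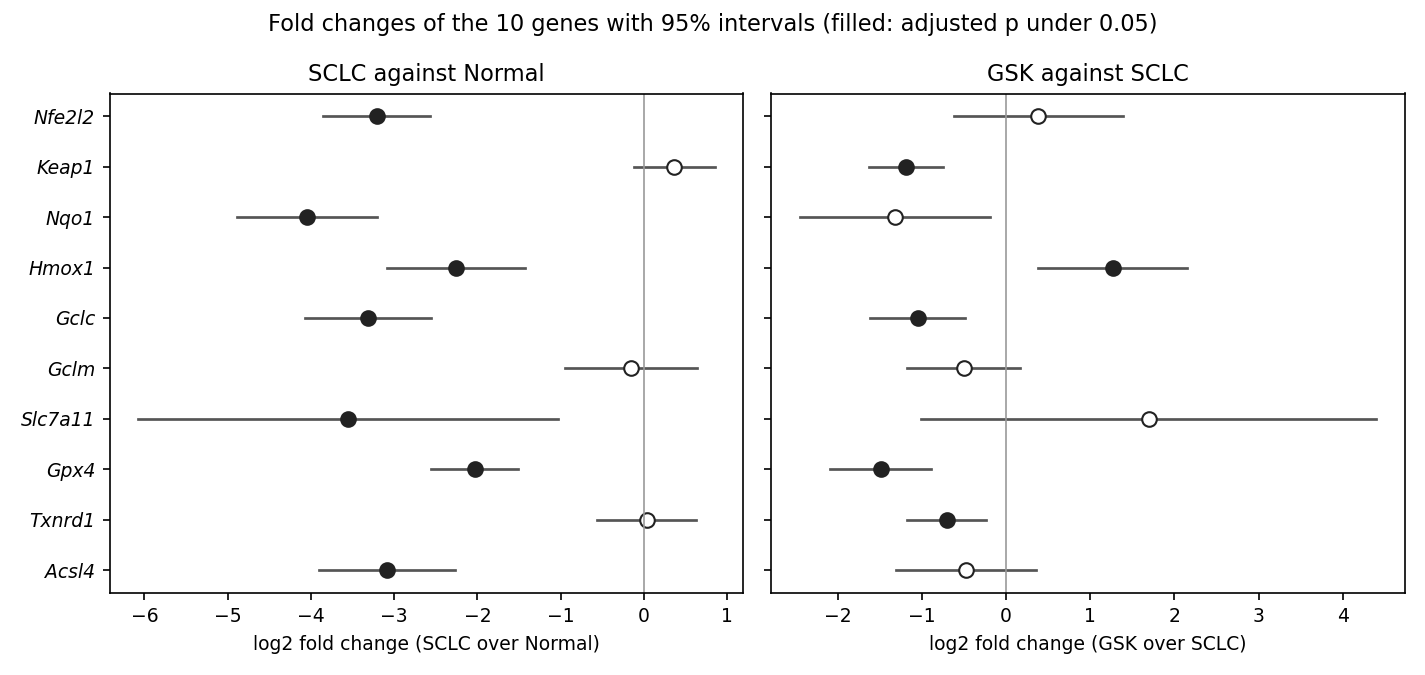
Log2 fold changes of the 10 genes in SCLC over Normal (left) and GSK over SCLC (right); points are the authors' estimates, lines 95% intervals from their standard errors, filled points have an adjusted p under 0.05. In SCLC over Normal, Keap1, Gclm and Txnrd1 lie around 0; in GSK over SCLC, Hmox1 at 1.26 is the filled point above 0.

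The neighbouring genes of the pathway were taken from 9 lists of 130 genes. Of these, 30 were higher and 61 lower in SCLC per the authors' deposited table, with a median log2 fold change of -0.64. The shares over all genes tested, given above, were 25.3% higher and 25.1% lower, and among those whose mean reached 1000, 38.2% and 29.1%. Of 12 NRF2 regulators, Mafk (-1.87 ± 0.23) and Nfe2l1 (-1.06 ± 0.18), a small MAF partner and a relative of NRF2, fell per the authors' deposited table. Bach1, a repressor that competes for NRF2 sites, also fell (-1.18 ± 0.21), and the ubiquitin ligase subunit gene Rbx1 rose (0.97 ± 0.32), per the authors' deposited table.

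Of 25 further NRF2 target enzymes, 17 fell and 2 rose in SCLC per the authors' deposited table, with a median of -1.72. Aldh3a1, an aldehyde dehydrogenase, was at least 778-fold lower in SCLC, where its mean lay under the floor, per the authors' deposited table. Osgin1, a growth inhibitor induced by oxidative stress, had -6.90 ± 0.80, the conjugate exporter Abcc3 had -6.45 ± 1.35 and the glutathione transferase Gsta1 had -7.64 ± 1.85 per the authors' deposited table. Those that rose were Txn1, which encodes thioredoxin (1.29 ± 0.37), and Gstp1, a glutathione transferase (1.02 ± 0.37), per the authors' deposited table. Gsta and Gstm genes are families of close copies, so reads may be split between them.

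Of 18 genes of glutathione synthesis, cystine supply and recycling, 8 rose and 4 fell in SCLC per the authors' deposited table. Cbs, which condenses serine and homocysteine on the route to cysteine, rose by 5.09 ± 0.51, and the glutamyltransferase-family gene Ggt7 rose by 5.48 ± 0.57, per the authors' deposited table. Slc3a2, the partner chain of Slc7a11 and named here after its value was seen, also rose (1.24 ± 0.29), while the glutaredoxin Glrx (-4.49 ± 0.29) and the oxoprolinase Oplah (-3.85 ± 0.35) fell, per the authors' deposited table. The chains of the cystine importer thus moved in opposite directions; Slc3a2 also pairs with other transporters. Of 14 glutathione peroxidases and transferases, 10 fell and 2 rose per the authors' deposited table, with a median of -3.40. Gpx8, a peroxidase of the endoplasmic reticulum, had -10.40 ± 0.65 per the authors' deposited table. Its SCLC mean of 1.06 lay just above the floor of 1, so the size of this fall is not exact. Mgst2, a microsomal transferase, had -6.06 ± 0.59, while Gstm5 (2.65 ± 0.32) and Gpx7 (1.76 ± 0.60) rose, per the authors' deposited table.

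Of 11 genes of the thioredoxin and peroxiredoxin system, 3 rose and 3 fell in SCLC per the authors' deposited table. Prdx2 (1.84 ± 0.25), the mitochondrial thioredoxin gene Txn2 (1.41 ± 0.24) and Txnrd2 (1.05 ± 0.44) rose, and Prdx6 (-3.87 ± 0.27), Txnip (-3.54 ± 0.32), whose protein binds thioredoxin, and Prdx5 (-0.66 ± 0.25) fell, per the authors' deposited table. Of 8 genes of selenoprotein synthesis, on which GPX4 and TXNRD1 depend, 4 rose per the authors' deposited table. They were Sephs2 (1.18 ± 0.21), Eefsec (1.46 ± 0.23), Trnau1ap (1.40 ± 0.28) and the selenoprotein P receptor Lrp8 (2.45 ± 0.43), and Sepsecs fell (-2.00 ± 0.25), per the authors' deposited table.

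Of 13 genes of lipid substrates and oxidation, 9 fell and 2 rose in SCLC per the authors' deposited table. Ptgs2, a cyclooxygenase often read as a marker of ferroptosis, was at least 7720-fold lower in SCLC, where its mean lay under the floor, per the authors' deposited table. Sat1, a polyamine acetyltransferase, had -5.14 ± 0.30 and the elongase Elovl5 had -2.01 ± 0.19, while the desaturase Fads2 rose by 1.37 ± 0.32, per the authors' deposited table. Of 12 suppressors outside glutathione, 5 fell and 4 rose per the authors' deposited table. Scd1, which makes monounsaturated fatty acids, had -5.91 ± 0.46 and Aifm2, which encodes FSP1, had -1.10 ± 0.37, while Dhodh (1.70 ± 0.24) and Mboat2 (2.10 ± 0.40) rose, per the authors' deposited table. Of 17 iron genes, 9 fell and 4 rose per the authors' deposited table. The zinc and iron importer Slc39a8 had -9.02 ± 0.44 and the ferritin heavy chain Fth1 had -2.08 ± 0.27, while the reductase Steap3 rose by 3.42 ± 0.55, per the authors' deposited table.

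**Figure D4:**
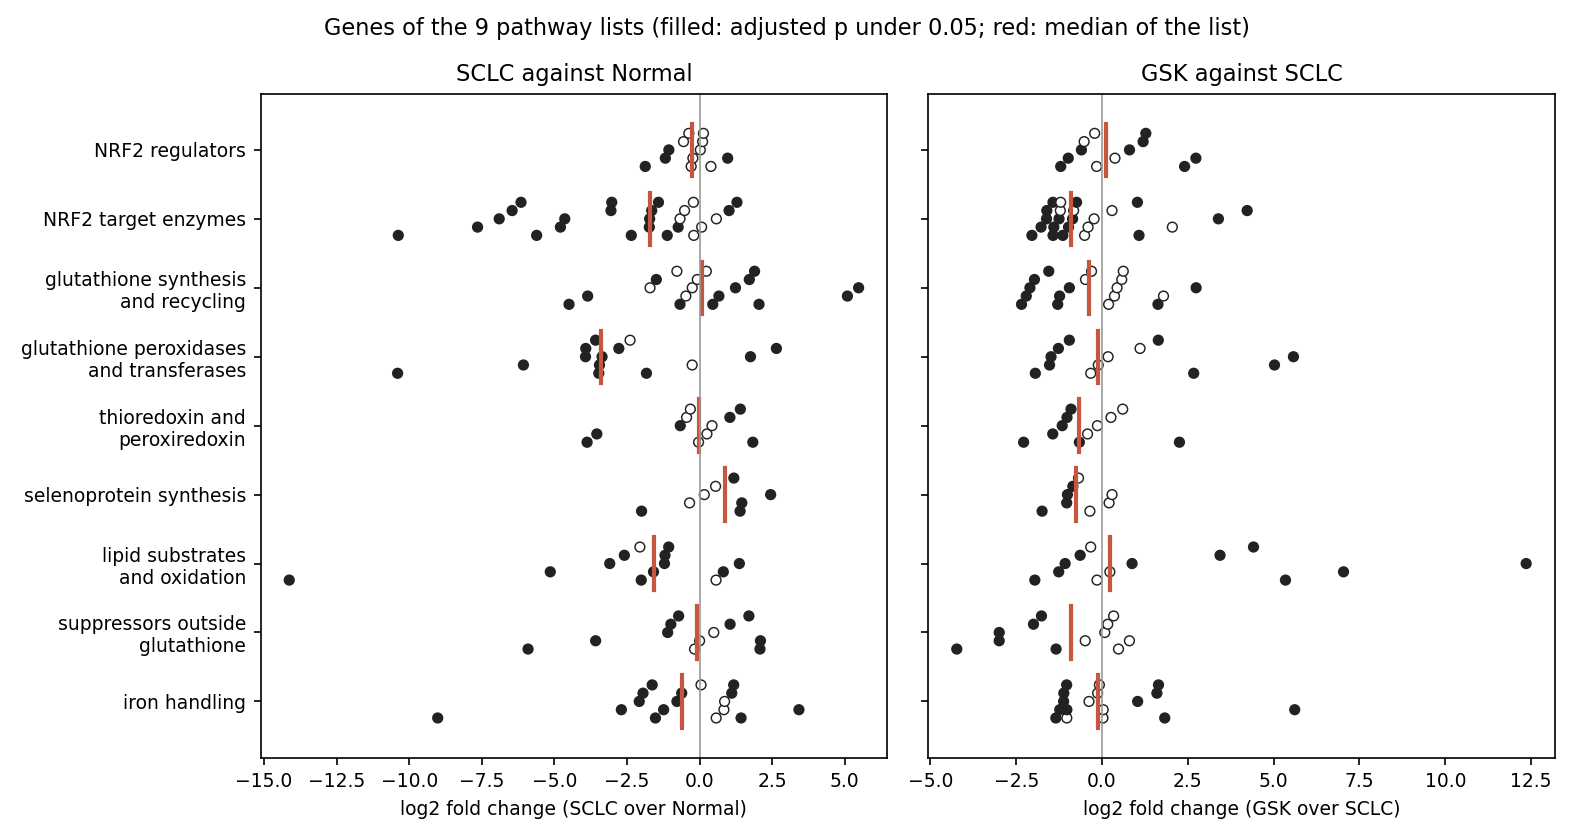
Log2 fold changes of the genes of 9 pathway lists in SCLC over Normal (left) and GSK over SCLC (right); filled points have an adjusted p under 0.05 and red bars are list medians. The bar of glutathione peroxidases and transferases lies at -3.40 in SCLC over Normal and at -0.11 in GSK over SCLC.

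The GSK-treated tumour organoids were then set against the second table's control libraries, taken as the SCLC group because their implied means matched it. This comparison shares the SCLC libraries with the first comparison, so the values of the pair are not independent. Of the 10 genes, 4 were lower in GSK and 1 higher per the authors' deposited table. Over all 28376 genes tested there, 15.5% were lower and 21.6% higher, 37.1% in either direction. Among genes with a mean of at least 1000 normalized counts, 37.1% were lower and 11.2% higher, 48.3% in either direction. The share of the 10 genes that fell was therefore near that of other abundant genes. Their median log2 fold change was -0.61, against -0.44 for genes with a mean of at least 1000 and 0.24 over all genes tested. When fold changes were scaled to equal totals, which moved them by 0.51 on the log2 scale, 2 of the 10 genes were lower and 1 higher, and over all genes the split of 6129 higher and 4404 lower became 8738 and 1970. After removal of GC content and length trends, 7 were lower and 1 higher.

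Keap1 fell and Nfe2l2 did not pass. Keap1 had 1816 normalized counts in GSK, against 4154 in SCLC, with a log2 fold change of -1.19 ± 0.22 (adjusted p = 9.84e-07 per the authors' deposited table). Scaled to equal totals, the values of the authors' deposited table gave -0.69, and without GC content and length trends -0.65. The call of Keap1 held in both and ended in the test of a log2 fold change above 1. Nfe2l2 had 2511 in GSK, against 1923 in SCLC, with a log2 fold change of 0.38 ± 0.51 (adjusted p = 0.602, 95% interval -0.62 to 1.39, per the authors' deposited table). Per kb, Nfe2l2 RNA was 2.02 times that of Keap1 in GSK and 0.676 times in SCLC, from the authors' deposited table.

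Hmox1 was the gene of the 10 that rose. Hmox1 had 2209.7 normalized counts in GSK, against 919 in SCLC, with a log2 fold change of 1.26 ± 0.45 (adjusted p = 0.017 per the authors' deposited table). Macrophage and erythroid RNA rose beside it, with the macrophage gene Csf1r, the receptor for a growth factor of these cells, at 5282 in GSK and 3.56 in SCLC and the erythroid haemoglobin gene Hba-a1 at 2492 in GSK and under the floor in SCLC, per the authors' deposited table; their part in the rise was not tested. Nqo1 had 27.4 in GSK, against 68.7 in SCLC, with a log2 fold change of -1.32 ± 0.58 that did not pass (adjusted p = 0.0564 per the authors' deposited table). With GC content and length trends removed from the authors' deposited table, Nqo1 was called lower at -1.90 (adjusted p = 0.00399). The readout enzymes Hmox1 and Nqo1 thus had estimates of opposite sign.

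Gclc and Gpx4 fell further below their SCLC levels. Gclc had 2753 normalized counts in GSK, against 5695 in SCLC, with a log2 fold change of -1.05 ± 0.29 (adjusted p = 0.00127 per the authors' deposited table). Scaled to equal totals, the values of the authors' deposited table gave -0.54 and ended the call (adjusted p = 0.127). Gpx4 had 5026 in GSK, against 14128 in SCLC, with a log2 fold change of -1.49 ± 0.31 (adjusted p = 1.02e-05 per the authors' deposited table), and its pseudogene Gpx4-ps2 had -1.29. The call of Gpx4 held under each scaling and ended in the test of a log2 fold change above 1; without GC content and length trends its value was -0.90. The neuroendocrine markers moved unequally in the same GSK libraries, per the authors' deposited table. Insm1 (-1.95 ± 0.27) and Syp (-1.33 ± 0.33) fell, and Calca rose (1.15 ± 0.40). Chga (0.06 ± 0.33) and Ncam1 (-0.32 ± 0.30) did not pass. The part of these markers in the falls of Gclc and Gpx4 was not tested.

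Txnrd1 had 10269 normalized counts in GSK, against 16769 in SCLC, with a log2 fold change of -0.71 ± 0.24 (adjusted p = 0.0101 per the authors' deposited table). Scaled to equal totals, the values of the authors' deposited table gave -0.20 (adjusted p = 0.537), and scaled to the median gene -0.46 (adjusted p = 0.117), which ended the call. Gclm had 2631 in GSK, against 3732 in SCLC, with a log2 fold change of -0.50 ± 0.34 (adjusted p = 0.255 per the authors' deposited table). Acsl4 had 1832 in GSK, against 2546 in SCLC, with a log2 fold change of -0.47 ± 0.42 (adjusted p = 0.404 per the authors' deposited table). Neither Gclm nor Acsl4 passed, and both had values near 0 when scaled to equal totals. With GC content and length trends removed from the authors' deposited table, both were called lower, Gclm at -0.96 (adjusted p = 0.0167) and Acsl4 at -1.01 (adjusted p = 0.0462).

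Slc7a11 had 1635 normalized counts in GSK, against 505 in SCLC, with a log2 fold change of 1.69 ± 1.38 that did not pass (adjusted p = 0.355 per the authors' deposited table). The 95% interval, -1.01 to 4.40, held a fall as well as a large rise. Its standard error was larger than that of 99.4% of genes with a mean within 2 times its own, in this comparison as in SCLC against Normal, where the median of such genes was 0.27, against 1.28 for Slc7a11. The library or libraries behind this spread could not be seen. Keap1 was at the other end in GSK against SCLC, with a standard error above that of 2.98% of genes of like mean, from the authors' deposited table.

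**Figure D5:**
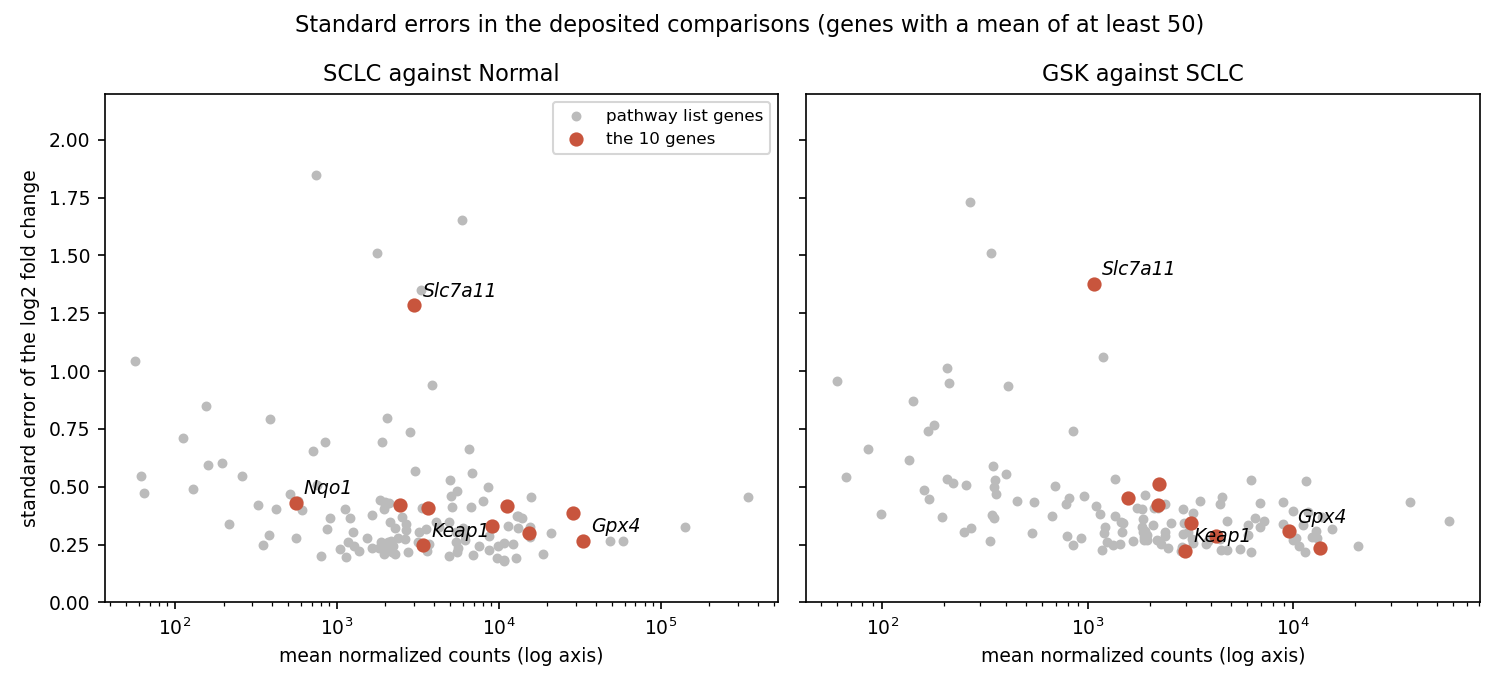
Standard error of the log2 fold change against mean normalized counts (log axis) for the 10 genes (red) and the genes of the pathway lists (grey) with a mean of at least 50 counts. Slc7a11 lies at 1.28 in SCLC against Normal and at 1.38 in GSK against SCLC, above the other red points, and Nqo1, whose mean in GSK against SCLC was 48.1, is drawn on the left alone.

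Of the 130 genes of the pathway lists, 128 were tested in GSK against SCLC, and 27 rose and 54 fell per the authors' deposited table; scaled to equal totals, 41 rose and 28 fell. Over all genes tested 21.6% were higher and 15.5% lower, and among those whose mean reached 1000, 11.2% and 37.1%. The share of falls was above both, nearer that of abundant genes, and the share of rises lay near that over all genes. Some list genes had means far under 1000, such as Mgst2 (84.8) and Slc39a8 (66.6), so neither background matches the lists. The counts of single lists are descriptions to be read against the same shares. Of 12 NRF2 regulators, 5 rose, among them the small MAF genes Maff (2.73 ± 0.42) and Mafk (1.27 ± 0.35) and the repressor Bach2 (2.40 ± 0.52), which is abundant in B cells, per the authors' deposited table. Dpp3, which competes for KEAP1, fell (-1.20 ± 0.23) per the authors' deposited table. Of 24 tested NRF2 target enzymes, 12 fell and 4 rose per the authors' deposited table. Gstp1 (-2.04 ± 0.39) and the transketolase Tkt (-1.78 ± 0.33) fell and Osgin1 rose (3.39 ± 0.95) per the authors' deposited table.

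Of 18 genes of glutathione synthesis, cystine supply and recycling, 8 fell and 2 rose in GSK per the authors' deposited table. The cysteine-making genes Cth (-2.35 ± 0.51) and Cbs (-2.21 ± 0.46) and the glutathione-degrading Chac1 (-2.10 ± 0.44) fell, per the authors' deposited table. Those that rose were Cdo1, a cysteine dioxygenase (2.74 ± 0.38), and Glrx (1.63 ± 0.38), per the authors' deposited table. Of 13 tested glutathione peroxidases and transferases, 4 rose and 5 fell per the authors' deposited table. Mgst2 (5.02 ± 0.66) and the secreted peroxidase Gpx3 (2.67 ± 0.54) rose per the authors' deposited table. The transferases Gstt1 (-1.94 ± 0.53) and Mgst3 (-1.53 ± 0.53) fell per the authors' deposited table. Of 11 thioredoxin system genes, 6 fell, Prdx2 with -2.29 ± 0.28, and Txnip rose by 2.25 ± 0.28, per the authors' deposited table. Of 8 selenoprotein synthesis genes, 4 fell and 0 rose (5 and 0 at an unadjusted p under 0.05), with Sephs2 at -1.75 ± 0.28, per the authors' deposited table.

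Of 13 genes of lipid substrates and oxidation, 6 rose and 4 fell in GSK per the authors' deposited table. Among those that fell, the desaturase Fads2 had -1.96 ± 0.31, per the authors' deposited table. The lipoxygenase Alox5 (7.04 ± 0.59), a gene of leukocytes, rose, as did Sat1 (3.44 ± 0.46), per the authors' deposited table. Ptgs2 was at least 2387-fold higher in GSK, since its SCLC mean lay under the floor, per the authors' deposited table. The summed macrophage, endothelial and epithelial markers also rose in GSK, as given above, and their part in these rises was not tested. Of 12 suppressors outside glutathione, 6 fell and 0 rose, also at an unadjusted p under 0.05, per the authors' deposited table. The largest fall was that of Prom2 (-4.23 ± 0.87, at a mean of 141 normalized counts). Scd1 was 7.98-fold lower, Scd2 7.99-fold lower and Dhodh had -2.00 ± 0.25, per the authors' deposited table. Of 17 iron genes, 5 rose and 6 fell per the authors' deposited table. The iron exporter Slc40a1, abundant in macrophages, rose (5.61 ± 0.94), as did Fbxl5, an iron sensor (1.83 ± 0.41), and Fth1 (1.04 ± 0.43), per the authors' deposited table. The largest fall of the list was that of Pcbp1 (-1.35 ± 0.24), named here after its value was seen, per the authors' deposited table.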

How the data were processed

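RNA was made into libraries with a stranded kit, sequenced on an Illumina NovaSeq as paired reads of 150 bp, per the labels' protocols, and processed with STAR 2.7.9a and GRCm39, per the submitters' processing notes. The tools of counting and testing, and whether strand was used, are not stated.

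The deposited signal column was the authors' mean of normalized counts over 6 libraries. The log2 fold change and its standard error were the authors' values. The score column held the authors' statistic, equal to their ratio to within 8.87e-08. The deposited p-value columns held unadjusted and adjusted p-values. A call was the authors' adjusted p under 0.05, as set for files without library values. Group means were implied from mean and fold change, with 3 libraries a group, and intervals are 95% normal intervals from the standard error. They carry no error of their own.

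The second table's control was taken as SCLC: over 13634 genes its implied means had a log2 ratio to the SCLC means of the first table with SD 0.00837. Folds against a group under 3 counts (a mean of 1) are bounds. Transcript length, GC content, overlapping genes and pseudogenes came from GENCODE M21 (GRCm38). Other genes overlap Nfe2l2, Keap1, Gclm, Slc7a11 and Txnrd1, on the opposite strand for Keap1, on the same strand for Nfe2l2 and on both for the others. On the strand of Txnrd1 lies the protein-coding Eid3, with a log2 fold change of 1.98 in GSK against SCLC at a mean of 89.7 normalized counts. On that of Slc7a11 lies Gm37498, with -5.83 in SCLC against Normal and 6.96 in GSK against SCLC, at means of 4.60 and 10.8. Protein-coding genes on the opposite strand overlap some named list genes, among them Mafk (Tmem184a), Fbxl5 (Bst1) and Prdx2 (Rnaseh2a and Junb). Tmem184a had a log2 fold change of -4.49 in SCLC against Normal, and Bst1 had 12.1 in GSK against SCLC, per the authors' deposited table. Reads of opposite-strand pairs cannot be told apart without strand, nor those of same-strand pairs where they overlap with it. A marker of the neuroendocrine list is not reported here. The 10 genes, the 9 lists and the alternatives were chosen with earlier results of these data known. Alternatives were adjustment over every gene with a p-value, a mean of at least 50, an adjusted p under 0.01, a test of log2 fold changes above 1, scaling to equal totals or to the median gene, and removal of GC content and length trends. Named list genes were up to 4 per list with the largest called change and a mean of at least 50. Any of 5 or fewer that changed one way could also be named. Slc3a2 and Pcbp1 were named after their values were seen. Scripts were tested on simulated data (Python 3.11.15, pandas 2.3.3, scipy 1.17.1).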

Additional observations from a re-analysis of the deposited data

How the results depend on the processing

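No paired analysis was possible because the tables hold no library values, and leaving out replicates, a replicate block and a second tool were not run for the same reason. Precision is thus known only through the authors' standard errors. In SCLC against Normal, the count of the 10 genes lower stayed at 6 or 7 under every alternative run. With a test of log2 fold changes above 1, 9 pathway genes were higher and 35 lower, and 2949 and 3391 of all genes. In GSK against SCLC, that test left 0 of the 10 genes higher and 0 lower (0 at its unadjusted p), 12 pathway genes higher and 6 lower, and 3161 and 563 of all genes. An adjusted p under 0.01 left 0 of the 10 genes higher. Equal totals gave 2 of the 10 genes lower, 41 pathway genes higher and 28 lower, and 1970 of all genes lower. Removing GC content and length trends gave 7 of the 10 genes lower, and a mean of at least 50 left 3422 genes higher. Sign changes of values that had not passed were Txnrd1 in SCLC against Normal (-0.15 scaled to the median gene, -0.093 without the trends), and, at equal totals in GSK against SCLC, Gclm (0.0018) and Acsl4 (0.031). Where no construction shows it, the cause was not tested.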

Other observations

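Standard errors of the authors' deposited tables were also large, beside genes of like mean, for a few further genes of these pathways in both comparisons. Of 129 genes whose mean reached 50 normalized counts in both tables, 7 had a standard error above that of 95% of genes of like mean in each: Slc7a11, the glutathione transferase gene Gsta3, the peroxidase gene Gpx2, the microsomal transferase gene Mgst1, Ptgs2, Tfrc and Selenop, which encodes the selenium transport protein. They were chosen after their values were seen, and the tables share the SCLC libraries. The share of all genes that lay above 95% in both comparisons was not counted, so the number 7 is a description only. Gsta3 had a log2 fold change of -4.79 ± 1.65 in SCLC against Normal and of -2.30 ± 1.73 in GSK against SCLC in the authors' deposited table. Gpx2 had -2.39 ± 1.51 in SCLC against Normal and -3.18 ± 1.51 in GSK against SCLC in the authors' deposited table. In GSK against SCLC, Gsta3 and Gpx2 were listed with no p-value although their means were 267 and 338 normalized counts.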
